A study of Mus musculus with 14 samples.

Results

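The comparison described here pools every array of an Irx3-null heart and sets it against every array with no Irx3 mutation in its label. The arrays measured whole mouse embryonic hearts at E12.5 (the embryonic day). All 14 arrays of the series took part, 8 of them Irx3-/- and 6 not. The Irx3-/- side held 4 Irx3-/-;Irx5+/- and 4 Irx3-/-;Irx5-/- arrays, and the other side held 3 Irx5+/- and 3 Irx5-/- arrays. The copy number of Irx5 was a term in the model, so the Irx3 difference was taken within each Irx5 genotype and averaged over them. Every group carried at least 1 mutant Irx5 allele, no wild-type heart was among them, and Irx5+/- is the reference of the series. The labels give no Cre, no tissue restriction and no strain for the alleles, and they do not say whether an array holds 1 embryo or a pool. Separate litters or animals are not named either, and p-values therefore reflect the spread of these samples alone. A bulk heart sample cannot tell fewer cells of a type from less RNA per cell.

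The Iroquois family is a set of homeodomain proteins that bind DNA and repress or activate genes, and Irx3 and Irx5 lie side by side in 1 of its clusters. In the heart Irx3 is known for its place in the trabeculae of the ventricle and in the ventricular conduction system, where it bears on the connexins that carry the fast impulse. Irx5 is known for the gradient of repolarization across the ventricular wall, and both genes are present in the endocardium of the embryo.

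A single array stood apart by its labels. Irx3-/-;Irx5+/- replicate 4 has the title and genotype of that group, while its description names Irx5-/-. It was kept by its title, and the results below are also given without it. Array medians ran from 7.89 to 7.99 on the log2 scale, and arrays correlated with each other at 0.953 to 0.986. The defining muscle genes marked the tissue as heart, since the 31 sarcomere genes measured had a median level at the 95.9th percentile of all genes. Xist, which marks female samples, was high on 6 of the 8 Irx3-/- arrays and on 3 of the 6 others. The value of each gene below is the log2 signal of its probe set, the group of short probes that reports it, and a difference of 1 is a doubling.

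Pooled over both Irx5 genotypes, hearts without Irx3 had an Irx3 signal 1.40-fold lower than the others, and no gene passed the threshold, Irx3 included. Bmp10, a growth factor of the trabecular and atrial myocardium, was 1.97-fold higher, the matrix gene Hmcn1 was 1.30-fold lower, and the embryonic globins and the sarcomere genes lay higher on average with wide spread between arrays. At a Benjamini-Hochberg adjusted p under 0.05 in limma, 0 of 21776 probe sets were called (0.0%), and 1072 had an unadjusted p under 0.05 (4.92%, where chance alone gives 1088.8). Of those, 484 lay higher (2.22%) and 588 lower (2.7%) on Irx3-/- arrays. Irx3 itself was nearest to passing, with an adjusted p of 0.0671 in limma, and the next smallest adjusted p was 0.988. A difference of 1 log2 unit or more was found for 20 probe sets (0.0918%), 12 of them higher (0.0551%) and 8 lower (0.0367%). The median standard error of the Irx3 difference was 0.0997, and its median 95% interval reached 0.214 to each side, before any adjustment for the number of probe sets tested. A call after that adjustment needed more, as Irx3 at -0.48 ± 0.07 missed it. Without Irx3-/-;Irx5+/- replicate 4, 1 probe set passed (0.00459%), that of Irx3, and 928 had an unadjusted p under 0.05 (4.26%). Without Irx5-/- replicate 2, 2 passed (0.00918%), Hspb8 at 0.95 ± 0.12 and Mecom at -0.71 ± 0.10. In that fit 1985 had an unadjusted p under 0.05 (9.12%, against 4.92% with all arrays).

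**Figure D1:**
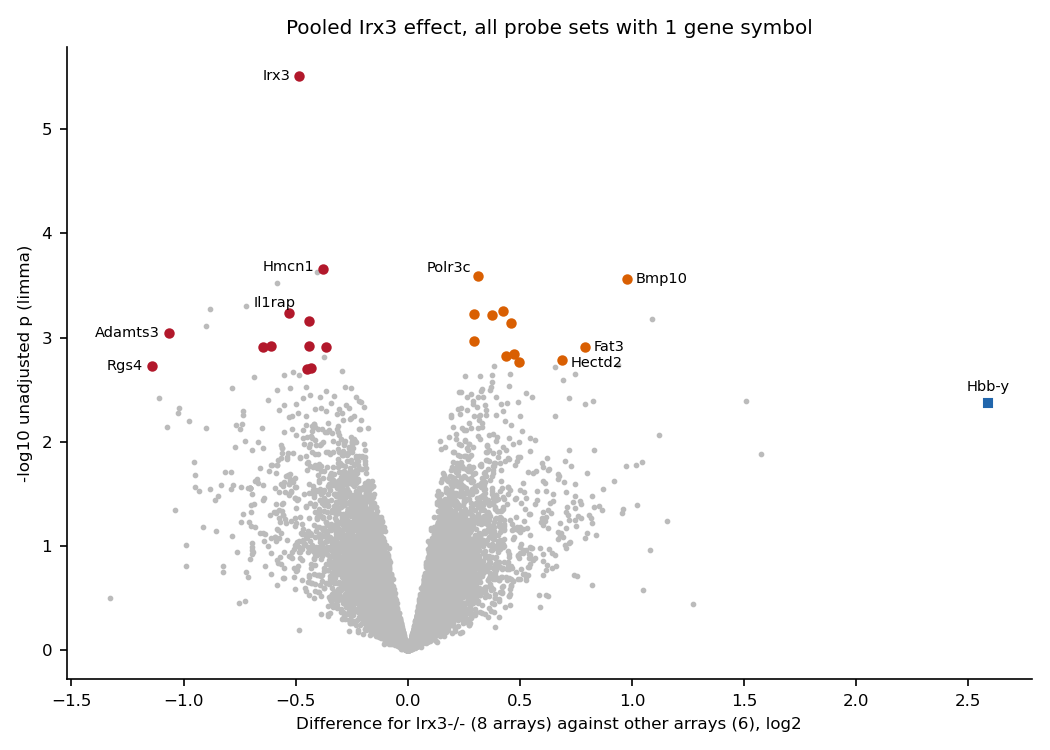
The pooled difference for the 8 Irx3-/- arrays against the 6 other arrays (x axis, log2) is plotted against -log10 of the unadjusted limma p (y axis) for 21776 probe sets, shown as grey points. Coloured circles are the 12 genes nearest to passing in each direction (red lower, orange higher), with predicted and clone names left out. The blue square is Hbb-y. Irx3 stands above all other probe sets at -0.48, Bmp10 at 0.98 has the largest difference among the orange circles, and Hbb-y at 2.59 lies farthest right.

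Irx3, the targeted gene, checks the labels. Its signal was 8.43, 8.53 and 8.44 on the Irx5+/- arrays and 7.87, 7.89, 7.93 and 8.17 on the Irx3-/-;Irx5+/- arrays, the last being replicate 4. On the Irx5-/- arrays it was 8.25, 8.14 and 8.19, and on the Irx3-/-;Irx5-/- arrays 7.86, 7.69, 7.75 and 7.60. By title, every Irx3-/- array lay below every array without an Irx3 mutation of the same Irx5 genotype. Of the 8, 7 lay below all 6 other arrays, replicate 4 being the exception. Its 8.17 lay above the 7.87 to 7.93 of its group and within the 8.14 to 8.25 of Irx5-/- arrays, the genotype in its description. The Irx3 signal therefore did not bear out the title of this array. The pooled difference was -0.48 ± 0.07 (SE), 1.40-fold lower, with a 95% interval from -0.62 to -0.34. It was almost the same in both Irx5 genotypes, at -0.50 with 1 Irx5 copy and -0.47 with none. For Irx3 alone, an exact permutation test that exchanged the Irx3 label within each Irx5 genotype gave p = 0.000816 (2-sided), the smallest that its 1225 relabelings allow. Over all probe sets Irx3 missed the threshold (adjusted p = 0.0671 in limma), and it passed without replicate 4, at -0.52 ± 0.06 (adjusted p = 0.027 in limma). It also passed with that array moved to the genotype of its description, at -0.51 (adjusted p = 0.00749), and with arrays centred on their medians, at -0.49 (adjusted p = 0.0342). The residual Irx3 signal of 7.60 to 8.17 was near the array medians. The deleted part of the gene, and so whether the probe set lies in it, is a detail not given in the sources used here.

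The loss of the second Irx5 copy also went with a lower Irx3 signal, at -0.25 ± 0.06, which did not pass (adjusted p = 0.119 in limma). The other 5 Iroquois genes showed no difference past the threshold. Irx5 ran from 7.52 to 8.43 with a median of 8.21 on Irx3-/- arrays and from 7.86 to 8.41 with a median of 8.27 on the others. Its pooled difference was -0.03 ± 0.12 (exact permutation p = 0.843), with an interval from -0.29 to 0.23. By Irx5 genotype, the Irx5 signal did not separate the labels. It was 8.19, 8.41 and 8.37 on Irx5+/- arrays and 8.31, 8.21, 8.21 and 8.31 on Irx3-/-;Irx5+/- arrays. On Irx5-/- arrays it was 7.86, 8.34 and 7.91, and on Irx3-/-;Irx5-/- arrays 8.20, 8.43, 7.52 and 8.04. The lowest values were on arrays with no Irx5 copy, and so was the highest of all 14. The Irx5 difference for the loss of its second copy was -0.25 ± 0.12 and did not pass (adjusted p = 0.333 in limma), so the Irx5 labels, which are a term in the model, are not borne out by this probe set. Its place relative to the deletion is likewise unknown here. Irx4, the ventricular member of the family, lay at 0.27 ± 0.22, Irx2 at 0.14 ± 0.08, Irx6 at 0.04 ± 0.10 and Irx1 at -0.04 ± 0.09. Irx3 therefore was the only one of the 6 with an unadjusted p under 0.05.

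The genes around Irx3 on the chromosome were looked at because both targeted genes lie in 1 cluster. Of the 20 nearest genes that were measured, 10 on each side, the median difference was -0.03 and 14 lay below 0 (48.0% over all genes). With an unadjusted p under 0.05 there was 1, which is near the share over all genes (4.71%). That gene was Crnde, a non-coding RNA gene beside Irx5. Its signal on Irx3-/-;Irx5+/- arrays was 8.35, 7.92, 9.08 and 8.16 against 7.51, 7.91 and 7.84 on Irx5+/- arrays. On Irx3-/-;Irx5-/- arrays it was 8.17, 7.64, 7.83 and 7.55 against 7.17, 7.46 and 7.67 on Irx5-/- arrays. The groups were separated by a narrow margin with 1 Irx5 copy and overlapped with none. The pooled Crnde difference was 0.49 ± 0.17 for Irx3 and -0.47 ± 0.17 for Irx5. The difference between these coefficients was 0.96 ± 0.23 and missed the threshold over all probe sets, as every probe set did in that contrast. Irx3os, the antisense gene of Irx3, lay at -0.08.

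The promoters of the genes nearest to passing were searched for ACANNTGT, the palindrome that Iroquois homeodomains are known to bind. RefSeq promoters (build GRCm38.p6) were found for 20 of the 24 genes, and 1 of them (5.0%) held the motif in the 250 bases before the start, against 2074 of 32851 promoters of the same length (6.31%). Bmp10 and Rrp15 are shown because they were among the genes with the smallest p on the higher side, and Rrp15 because it held that match, in capitals, 32 bases before the start. The Bmp10 promoter (chr6:87428744-87428993, plus strand) has no ACANNTGT. Its capitals mark 2 copies of AGATAA, the core bound by GATA factors, at 219 and 33 bases before the start. That motif was chosen after reading the promoter. On either strand it occurs at least once in 9.99% of promoters and 2 or more times in 0.938%. The Rrp15 promoter (chr1:186749359-186749608) is on the minus strand. A match is a description of the letters and not a site.
Bmp10: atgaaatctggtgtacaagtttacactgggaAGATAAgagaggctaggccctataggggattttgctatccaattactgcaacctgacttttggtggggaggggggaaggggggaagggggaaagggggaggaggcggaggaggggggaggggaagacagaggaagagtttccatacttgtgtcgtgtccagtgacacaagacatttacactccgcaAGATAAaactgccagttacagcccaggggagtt
Rrp15: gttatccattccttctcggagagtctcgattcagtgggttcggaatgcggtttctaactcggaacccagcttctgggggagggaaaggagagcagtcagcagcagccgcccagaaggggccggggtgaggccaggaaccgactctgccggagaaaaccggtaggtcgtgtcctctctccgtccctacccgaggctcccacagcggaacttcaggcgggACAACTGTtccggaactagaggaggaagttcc

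Bmp10, whose promoter is printed above, is a ligand made by the trabecular and atrial myocardium that keeps embryonic cardiomyocytes dividing. Its signal was 6.15, 6.01 and 6.44 on Irx5+/- arrays and 7.75, 7.32, 6.82 and 6.38 on Irx3-/-;Irx5+/- arrays, the last again being replicate 4. It was 5.82, 6.38 and 5.94 on Irx5-/- arrays and 6.74, 6.95, 7.74 and 7.10 on Irx3-/-;Irx5-/- arrays. Of the 8 Irx3-/- arrays, 7 lay above all 6 others, and replicate 4 lay inside their range. The pooled difference was 0.98 ± 0.20, 1.97-fold, with an interval from 0.54 to 1.41. It did not pass (adjusted p = 0.988 in limma) and was 1.09 without replicate 4 (adjusted p = 0.363). The difference was 0.87 with 1 Irx5 copy and 1.08 with none. The loss of the second Irx5 copy left Bmp10 at -0.03 ± 0.20. With each array's sarcomere level as a term the Bmp10 difference was 0.89, and with Xist as a term 1.07. Leaving out 1 array at a time gave 0.87 to 1.09. Bmp10 was a dim probe set, with a mean of 6.68 against array medians near 7.9.

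**Figure D2:**
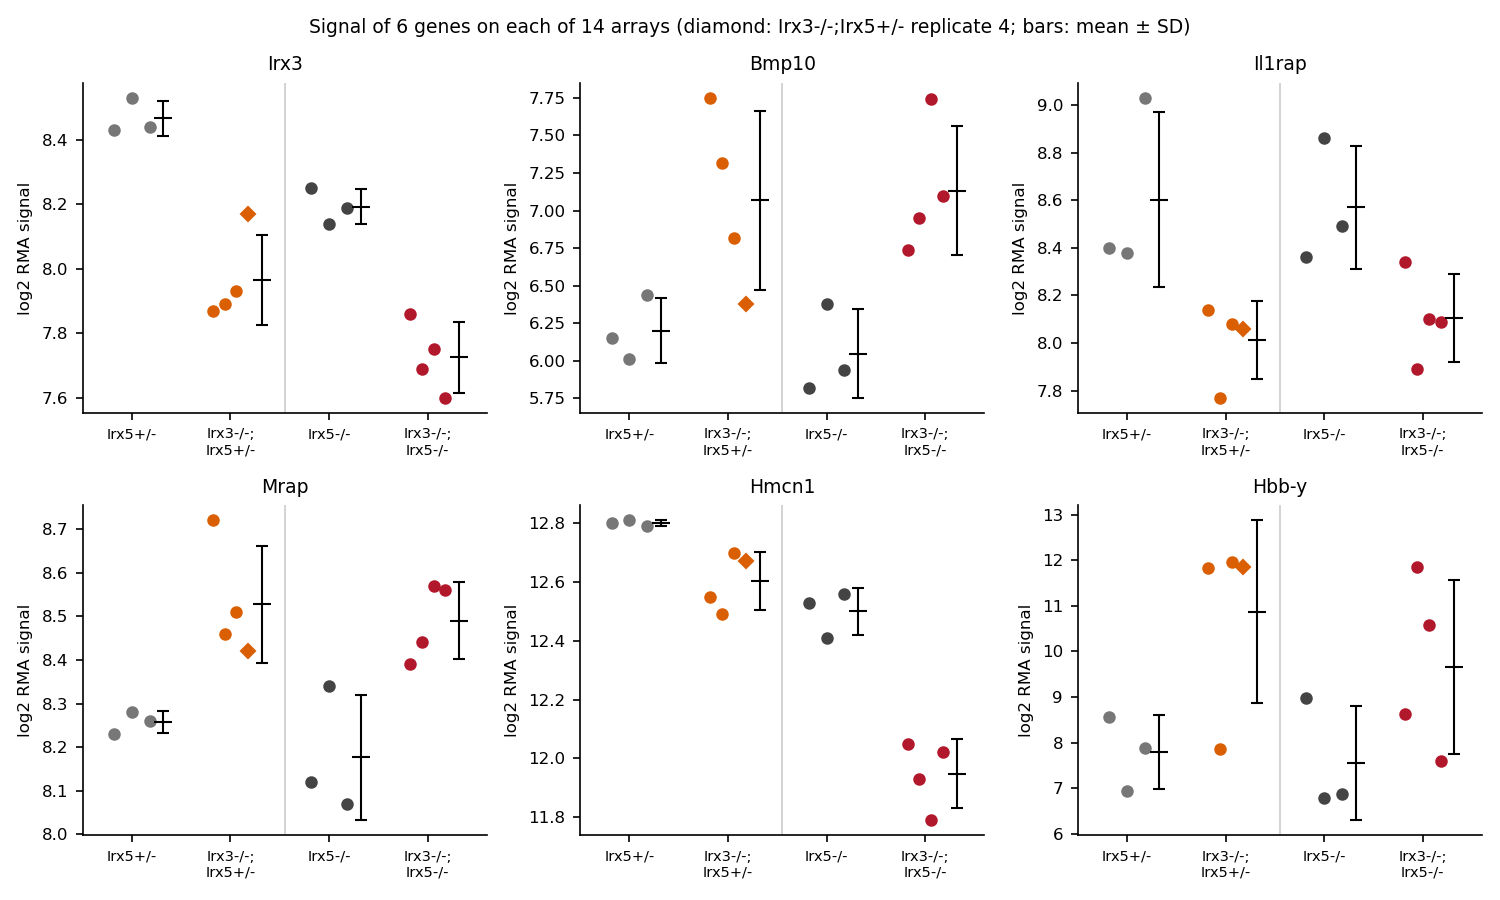
Log2 signal (y axes, each panel on its own scale) of Irx3, Bmp10, Il1rap, Mrap, Hmcn1 and Hbb-y on each of the 14 arrays, by genotype (x axis), with a grey line between Irx5+/- and Irx5-/- backgrounds. Points are arrays, the diamond is Irx3-/-;Irx5+/- replicate 4, and bars are the mean ± SD of 3 or 4 arrays. Il1rap is lower and Mrap higher on all 8 Irx3-/- arrays than on the 6 others, while Hmcn1 is lowest on the 4 Irx3-/-;Irx5-/- arrays, from 11.79 to 12.05.

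All 8 Irx3-/- arrays were separated from all 6 others in 3 probe sets above (0.0138%) and 3 below (0.0138%). Shares this small can arise by chance alone, so the genes named here are given as a description. Mrap, an accessory protein of the corticotropin receptor, was 1 of those above. Its signal ran from 8.39 to 8.72 with a median of 8.49 on Irx3-/- arrays and from 8.07 to 8.34 with a median of 8.25 on the others. The gap between the sides was 1 narrow step, from 8.34 to 8.39. The pooled Mrap difference was 0.29 ± 0.07, and the Irx5 difference was -0.05 ± 0.07. Il1rap, a subunit of the interleukin-1 and interleukin-33 receptors, was 1 of those below. Its signal ran from 7.77 to 8.34 with a median of 8.09 on Irx3-/- arrays and from 8.36 to 9.03 with a median of 8.45 on the others. The highest Irx3-/- value thus lay just under the lowest of the others. The pooled Il1rap difference was -0.53 ± 0.12, at -0.59 with 1 Irx5 copy and -0.47 with none, and the Irx5 difference was 0.04 ± 0.12. The remaining 4, named after their values were seen, were Hs3st6 and Tmem205 above and Secisbp2l and 1700016D06Rik below. None of the 6 passed over all probe sets, where the smallest adjusted p among them was 0.988 in limma. Counted within each Irx5 genotype, 16 probe sets had the Irx3-/- arrays above in both (0.0735%) and 11 below in both (0.0505%), 27 in all (0.124%). When Irx3 labels are exchanged within each Irx5 genotype, 1 of 1225 relabelings separates the arrays in a given direction, a share of 0.000816. Neither count was above that share.

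The other genes of the 12 nearest to passing on the higher side each had an adjusted p of 0.988 in limma. Predicted and clone names were left out of these 12. Polr3c, a subunit of RNA polymerase III, lay at 0.31 ± 0.06 and was separated in both Irx5 genotypes. Its signal was 8.48, 8.62 and 8.33 against 8.72, 8.73, 8.73 and 8.93 with 1 Irx5 copy, and 8.83, 8.69 and 8.71 against 9.02, 8.98, 9.11 and 9.16 with none. Rrp15, a ribosomal RNA processing factor, lay at 0.42 ± 0.10. With 1 Irx5 copy Rrp15 was 8.97, 8.78 and 8.92 against 9.35, 8.84, 9.27 and 8.99, and the groups overlapped. With none it was 8.67, 8.63 and 8.73 against 9.21, 9.30, 9.31 and 9.38, and they did not. Zfp398, a zinc finger gene, lay at 0.38 ± 0.09 for Irx3 and -0.33 ± 0.08 for Irx5, and was separated in both Irx5 genotypes. Zfp974, another zinc finger gene, lay at 0.47 ± 0.12 and was separated in both as well. Fat3, an atypical cadherin, lay at 0.79 ± 0.20 in its probe set with the smallest p, while 10 of its 15 probe sets lay above 0 with a median of 0.13. Hectd2, a ubiquitin ligase, lay at 0.69 ± 0.18, and at 0.43 with the sarcomere level as a term. Fdft1, squalene synthase of the cholesterol pathway, lay at 0.49 ± 0.13 and at 0.38 ± 0.10 in its second probe set. Fdft1 also rose with the loss of the second Irx5 copy, by 0.85 ± 0.13 (adjusted p = 0.0381 in limma), 1 of 7 probe sets called for Irx5 (0.0321%). Arap2, a GTPase-activating protein, lay at 0.46 ± 0.11, Trappc10, a vesicle tethering subunit, at 0.29 ± 0.07 and Fam72a at 0.44 ± 0.11.

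On the lower side Hmcn1 and Adamts3, both genes of extracellular matrix proteins, had many probe sets each, which share a transcript and are not independent. Hmcn1 encodes hemicentin, a large matrix protein of cell junctions. Its probe set with the smallest p was 12.80, 12.81 and 12.79 on Irx5+/- arrays and 12.55, 12.49, 12.70 and 12.67 on Irx3-/-;Irx5+/- arrays. It was 12.53, 12.41 and 12.56 on Irx5-/- arrays and 12.05, 11.93, 11.79 and 12.02 on Irx3-/-;Irx5-/- arrays. The groups were separated in both Irx5 genotypes, and the 4 Irx3-/-;Irx5-/- arrays were the lowest of all. The pooled Hmcn1 difference was -0.38 ± 0.08 for Irx3 (adjusted p = 0.988 in limma), while the Irx5 difference of -0.50 ± 0.08 passed (adjusted p = 0.0381). All 77 Hmcn1 probe sets lay below 0 for Irx3, from -0.77 to -0.04 with a median of -0.35, and 31 had an unadjusted p under 0.05. The Irx3 difference was not even between the Irx5 genotypes. With 1 Irx5 copy 56 of the 77 lay below 0 with a median of -0.12, and with none all 77 did, with a median of -0.58. The mean over the 77 probe sets was 10.99 ± 0.21 (SD, n = 3) on Irx5+/- arrays, 10.87 ± 0.29 (SD, n = 4) on Irx3-/-;Irx5+/- arrays, 10.63 ± 0.19 (SD, n = 3) on Irx5-/- arrays and 10.04 ± 0.14 (SD, n = 4) on Irx3-/-;Irx5-/- arrays. With 1 Irx5 copy the Irx3 groups thus differed by less than their SDs, and with none they did not overlap, at 10.42 to 10.80 against 9.91 to 10.23. One Hmcn1 probe set was among the smallest p of the interaction, at -1.03 ± 0.22, and did not pass.

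Adamts3, a protease that trims procollagen and activates the lymphatic growth factor VEGF-C, ran from 5.99 to 7.39 with a median of 6.98 on Irx3-/- arrays and from 7.09 to 8.47 with a median of 7.92 on the others. Of the 8 Irx3-/- arrays, 4 lay below all others. The pooled difference was -1.06 ± 0.25 in this probe set, and -0.68 with the sarcomere level as a term. Of 16 Adamts3 probe sets 15 lay below 0, with a median of -0.48. Rgs4, which switches off G protein signals, ran from 6.81 to 8.64 with a median of 7.48 on Irx3-/- arrays and from 7.08 to 9.49 with a median of 9.02 on the others. The pooled Rgs4 difference was -1.14 ± 0.30, and -0.82 with the sarcomere term. Fgf18, a growth factor, ran from 7.94 to 9.16 against 8.47 to 9.56, and 6 of 8 Irx3-/- arrays lay below all others. Its pooled difference was -0.61 ± 0.15, and -0.41 with the sarcomere term. Cd34, a surface protein of endothelial and stem cells, ran from 10.35 to 11.24 against 10.54 to 11.79, with medians of 10.90 and 11.57. Its pooled difference was -0.65 ± 0.16, at -0.61 with 1 Irx5 copy and -0.68 with none. Endod1 lay at -0.44 ± 0.10, and all 4 Irx3-/-;Irx5+/- arrays were below all 3 Irx5+/- arrays. With no Irx5 copy the Endod1 difference was -0.25 and the groups overlapped. Dnajc13, an endosomal co-chaperone, lay at -0.36 ± 0.09 in its probe set with the smallest p. Of its 15 probe sets 12 lay below 0, with a median of only -0.08. Dram2, a lysosomal membrane protein of autophagy, lay at -0.44 ± 0.11, Apmap at -0.43 ± 0.11 and Fancl, a ubiquitin ligase of the Fanconi DNA repair pathway, at -0.45 ± 0.12. Each of these genes had an adjusted p of 0.988 in limma.

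The embryonic globins had the largest pooled difference of any gene. Hbb-y, the beta-like globin of primitive red cells, was 8.57, 6.94 and 7.89 on Irx5+/- arrays and 11.83, 7.87, 11.95 and 11.84 on Irx3-/-;Irx5+/- arrays. It was 8.99, 6.79 and 6.88 on Irx5-/- arrays and 8.62, 11.84, 10.58 and 7.60 on Irx3-/-;Irx5-/- arrays. The high values came from 5 of the 8 Irx3-/- arrays, and the other 3 lay among the 6 remaining arrays. The pooled Hbb-y difference was 2.59 ± 0.76, with an interval from 0.96 to 4.22, and did not pass (adjusted p = 0.988 in limma). Hba-x, the alpha-like embryonic globin, was 7.66, 7.50 and 7.51 against 10.32, 7.87, 9.85 and 9.63 with 1 Irx5 copy, and 7.47, 7.41 and 7.32 against 7.82, 10.51, 8.38 and 7.51 with none. The Hba-x groups did not overlap in either Irx5 genotype, although 3 Irx3-/- arrays exceeded the highest of the others, 7.66, by little or not at all. The pooled Hba-x difference was 1.51 ± 0.44. Of the 11 erythroid genes measured, 8 lay above 0 (52.0% over all genes) and 3 lay higher with an unadjusted p under 0.05 (2.17%), the third being Slc4a1, the red cell anion exchanger, at 0.16 ± 0.07. The transcription factors Gata1 and Klf1 lay at 0.03 ± 0.09 and 0.00 ± 0.08, and the haem enzyme Alas2 at -0.07 ± 0.14. The median of the list was 0.12, and 1.00 over the 4 of its genes with a level above the median of all probe sets. How much blood stayed in each heart, a detail not given in the sources used here, was not measured, and its part in the globin values was not tested.

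Genes of the sarcomere, the contractile unit of muscle, lay highest among the lists. All 31 measured were above 0 with a median of 0.54, against 52.0% above 0 and a median of 0.005 over all 19931 genes. With an unadjusted p under 0.05 there were 10 higher and 0 lower, against 2.17% higher over all genes (4.71% in either direction), and 0 passed. Genes of the sarcomere vary together, so their number is no count of independent results. Myl7, the atrial myosin light chain, was the member with the smallest p. It ran from 11.38 to 12.79 with a median of 12.45 on Irx3-/- arrays and from 10.29 to 12.64 with a median of 11.60 on the others. The ranges overlapped, and the pooled Myl7 difference was 0.79 ± 0.23. Tnni1, slow troponin I, lay at 0.63 ± 0.24, Myoz2 at 1.02 ± 0.45 and Myh6 at 0.75 ± 0.34.

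The sarcomere difference depended on which arrays were compared. The list mean on each array, relative to the mean of all 14, was 0.11, -0.66 and -1.62 on Irx5+/- arrays and 0.39, 0.05, -0.43 and 0.25 on Irx3-/-;Irx5+/- arrays. It was -0.20, 0.87 and -0.30 on Irx5-/- arrays and 0.18, 0.27, 0.65 and 0.44 on Irx3-/-;Irx5-/- arrays. Both the lowest and the highest array were therefore on the side without an Irx3 mutation, Irx5+/- replicate 3 and Irx5-/- replicate 2. The list median was 0.82 with 1 Irx5 copy and 0.29 with none. Without Irx5+/- replicate 3 the pooled median was 0.32, and without Irx5-/- replicate 2 it was 0.76.

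**Figure D3:**
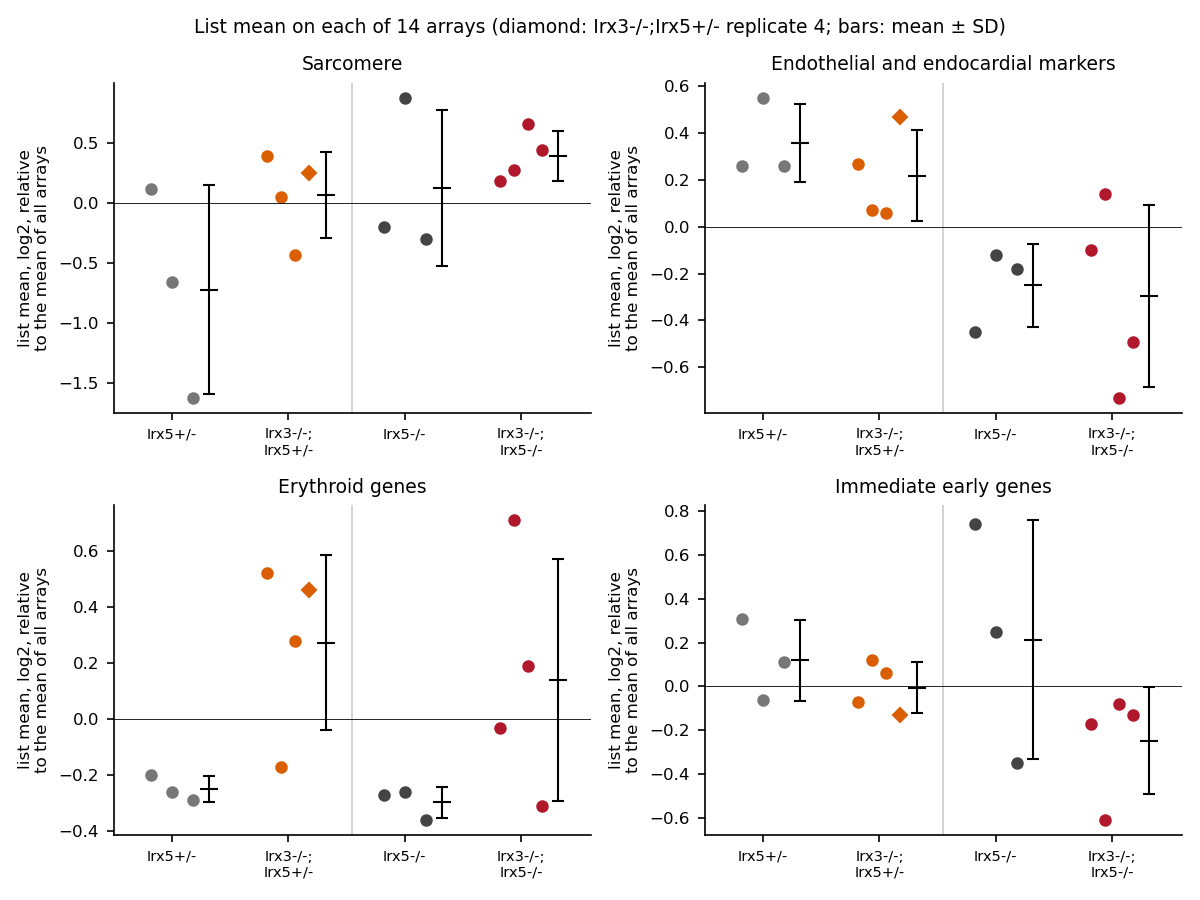
Mean of the genes of 4 lists on each of the 14 arrays, in log2 units relative to the mean of all arrays (y axes, each on its own scale), by genotype (x axis). Points are arrays, the diamond is Irx3-/-;Irx5+/- replicate 4, and bars are the mean ± SD of 3 or 4 arrays. The sarcomere list spans -1.62 to 0.87 within the 6 arrays with no Irx3 mutation. The erythroid list stays between -0.36 and -0.20 on those 6 arrays and runs from -0.31 to 0.71 on Irx3-/- arrays.

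Lists of energy metabolism lay above 0 along with the sarcomere. All 26 genes of oxidative phosphorylation, which vary together too, were above 0 (52.0% over all genes) with a median of 0.22, and 4 lay higher with an unadjusted p under 0.05 (2.17% over all genes), among them Ndufv2 of complex I at 0.41 ± 0.15 and Cox6a2 of complex IV at 0.67 ± 0.26. Glycolysis and hypoxia response had a median of 0.27 with 21 of 24 above 0. With an unadjusted p under 0.05 there was 1 (2.17% higher over all genes), Ldhb at 0.50 ± 0.21. Fatty acid uptake and oxidation had a median of 0.13, and its member with the smallest p, Cpt1a, the entry enzyme of mitochondrial fat oxidation, lay lower at -0.21 ± 0.10. Calcium handling had a median of 0.27 with 13 of 17 above 0. With an unadjusted p under 0.05, 3 of its genes lay higher (2.17% over all genes) and 1 lower (2.53%). Hrc, a calcium-binding protein of the sarcoplasmic reticulum, lay at 0.67 ± 0.26, and Fkbp1b, which steadies the ryanodine receptor, at -0.54 ± 0.19. Mitochondrial import and protein quality control had a median of 0.14 with 21 of 23 above 0. Without Irx5-/- replicate 2 the medians were 0.34 for oxidative phosphorylation, 0.42 for glycolysis, 0.27 for fatty acids and 0.49 for calcium handling. That of mitochondrial import was 0.25. Without Irx5+/- replicate 3 the oxidative phosphorylation median was 0.14, and without Irx5-/- replicate 1 the fatty acid median was 0.07. When each array's sarcomere level was a term in the model, these medians were -0.01 for oxidative phosphorylation, -0.02 for glycolysis, -0.13 for fatty acids and -0.11 for calcium handling, and that of the sarcomere list itself, which supplied the term, was 0.02.

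Trabecular and conduction genes bear on what Irx3 is known for. Of 15 trabecular genes 4 lay higher (2.17% over all genes) and 3 lower (2.53%) with an unadjusted p under 0.05. Irx3 and Bmp10, described above, are both in that list. Its median was 0.13, 0.06 without Irx5-/- replicate 1 and 0.26 without Irx5-/- replicate 2. Cited1, a transcriptional co-activator of the trabeculae, lay at 1.04 ± 0.38. Slit2, a guidance ligand, lay at -0.52 ± 0.22. Gja5, the fast-conduction connexin of atria and trabeculae, ran from 9.74 to 11.14 with a median of 10.33 on Irx3-/- arrays and from 7.38 to 10.97 with a median of 9.99 on the others. Its lowest values, 8.31 and 7.38, were on Irx5+/- arrays with the lowest sarcomere levels. The pooled Gja5 difference was 0.92 ± 0.36, 0.59 without Irx5+/- replicate 3, and 0.26 with the sarcomere term. Of 20 conduction and pacemaker genes the median was 0.03, and Gja5 and Tbx3 were the 2 with an unadjusted p under 0.05 (4.71% over all genes). Tbx3, a repressor that keeps pacemaker cells from becoming working muscle, was 8.20, 7.98 and 8.12 against 8.18, 8.01, 8.24 and 8.32 with 1 Irx5 copy, and 7.95, 8.27 and 7.90 against 8.76, 8.62, 8.94 and 8.36 with none. The Irx3 groups overlapped in the former and not in the latter. The pooled Tbx3 difference was 0.36 ± 0.12, and its interaction of 0.55 ± 0.19 did not pass. In the compact myocardium list, with a median of 0.19, Ccnd1, the D-type cyclin of cell cycle entry, lay at 0.37 ± 0.10. With no Irx5 copy its highest value without an Irx3 mutation was 10.53 and its lowest on Irx3-/- arrays 10.77.

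Other lists had medians below 0. Immediate early genes, which respond fast to stimulation, had the lowest median of the 35 lists without the sex-linked genes, at -0.26. Of the 16, 13 lay below 0 (48.0% over all genes) and 2 lay lower with an unadjusted p under 0.05 (2.53% over all genes). Fosb lay at -0.75 ± 0.30 and Egr2 at -0.88 ± 0.36, and without Irx5-/- replicate 1, the array highest in this list at 0.74, they lay at -0.47 and -0.57 and the list median at -0.13. Endothelial and endocardial markers had a median of -0.10 with 24 of 30 below 0, and a median of 0.00 without Irx3-/-;Irx5-/- replicate 3. Only Cd34, 1 of 30, had an unadjusted p under 0.05, which is near the share over all genes (4.71%). Pecam1, the junction protein of endothelium, lay at -0.22 ± 0.17 and Kdr, its VEGF receptor, at -0.25 ± 0.17. The endothelial median for the loss of Irx5 was -0.59. Extracellular matrix genes had a median of -0.09 with 24 of 33 below 0 and 5 lower with an unadjusted p under 0.05 (2.53% over all genes). They were Hmcn1, Col6a3 at -0.78 ± 0.31, elastin (Eln) at -0.70 ± 0.31, Fbln5 at -1.04 ± 0.47 and Fbn2 at -0.31 ± 0.14. With the sarcomere level as a term the median of the matrix list was 0.01. Wnt signalling had a median of -0.05 with 17 of 23 below 0, and 3 genes lay lower with an unadjusted p under 0.05 (2.53% over all genes), the receptor Fzd1 at -0.54 ± 0.21 and the secreted modulators Sfrp2 at -0.83 ± 0.34 and Dkk3 at -0.45 ± 0.20. Notch signalling had a median of -0.04 with 9 above and 10 below 0, and 3 genes lay lower at that p (2.53% over all genes), the ligand Jag1 at -0.58 ± 0.24, the receptor Notch2 at -0.52 ± 0.21 and the target Nrarp at -0.27 ± 0.11. Hey2, a Notch target of the compact ventricle, lay at 0.44 ± 0.34. BMP and TGF-beta signalling had a median of -0.04, with Bmp10 higher and Tgfb2, a ligand of cushion formation, at -0.26 ± 0.12.

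**Figure D4:**
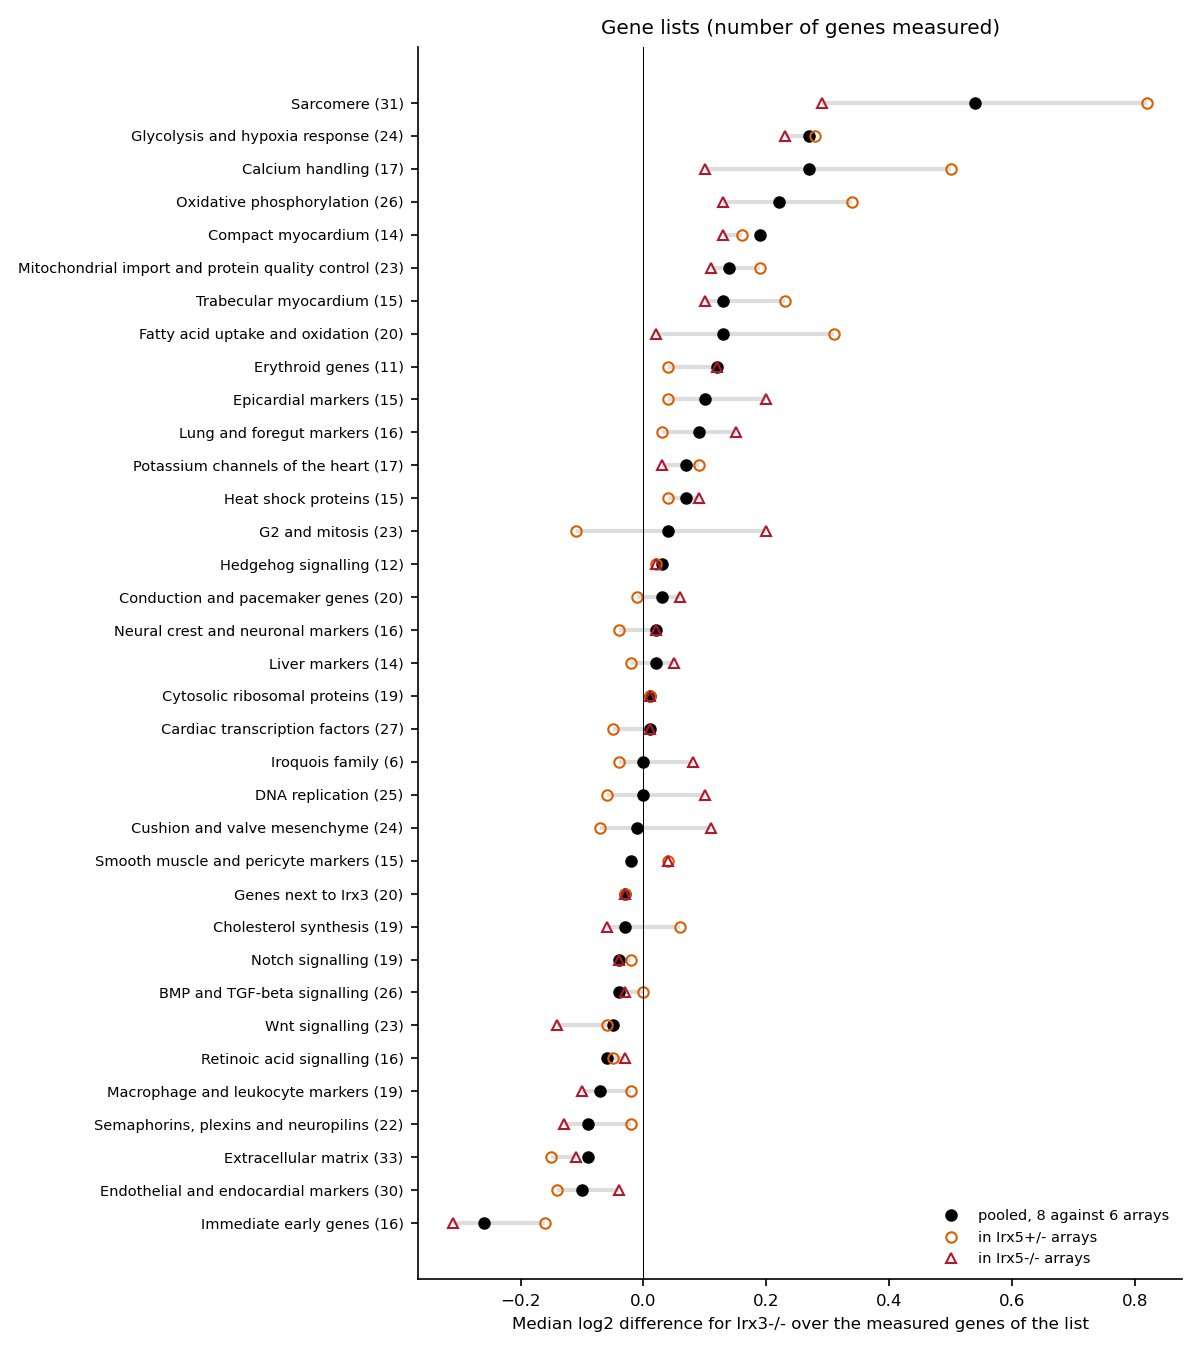
Median log2 difference for Irx3-/- arrays (x axis) over the measured genes of each of 35 lists (y axis, number of genes in brackets), pooled over 8 against 6 arrays (black circles), with 1 Irx5 copy (orange open circles) and with none (red open triangles). The sarcomere list is highest in the pooled value at 0.54 and has the widest gap between Irx5 genotypes, 0.82 against 0.29, and immediate early genes are lowest at -0.26.

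Further lists had medians from -0.07 to 0.10. Cytosolic ribosomal proteins lay at 0.01, cardiac transcription factors at 0.01, DNA replication at 0.00, cholesterol synthesis at -0.03, cushion and valve mesenchyme at -0.01 and smooth muscle and pericyte markers at -0.02. Lung and foregut markers lay at 0.09, liver markers at 0.02 and neural crest and neuronal markers at 0.02. Macrophage and leukocyte markers lay at -0.07 with 15 of 19 below 0 (48.0% over all genes). Epicardial markers lay at 0.10, from -0.10 to 0.21 with 1 array left out, and at 0.40 with the sarcomere term. The G2 and mitosis list lay at 0.04 when pooled, which joined -0.11 with 1 Irx5 copy and 0.20 with none. Nr2f1, an atrial transcription factor, lay at 0.38 ± 0.12, and Cdc6, which loads the replication helicase, at 0.40 ± 0.13.

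Whether the Irx3 difference was alike in both Irx5 genotypes was tested by the interaction, which is the Irx3 difference with no Irx5 copy minus that with 1. In limma 0 of 21776 probe sets passed (0.0%), 890 had an unadjusted p under 0.05 (4.09%, 1.93% higher and 2.15% lower), and the smallest adjusted p was 1.0. This does not show that the differences were alike, since the median standard error of the interaction was 0.200. Measured on separate arrays, the Irx3 differences in both genotypes had the same sign for 52.2% of probe sets and correlated at 0.135 across probe sets (Spearman 0.078), or at 0.215 among the 10888 above the median level. Probe sets are not independent, and the arrays share a platform and a normalization. An unadjusted p under 0.05 in both genotypes was found for 29 probe sets in the same direction (0.133%) and 24 in opposite directions (0.11%). The 29 included Irx3, Bmp10, Il1rap, Mrap, Polr3c, Adamts3, Cd34, Fgf18 and Myl7. Also among them was 4932438A13Rik, which the rule for named genes left out, at 1.27 with 1 Irx5 copy and 0.91 with none. Fitted alone, Irx5+/- arrays gave 1171 probe sets with an unadjusted p under 0.05 (5.38%) and Irx5-/- arrays 817 (3.75%), with 0 passing in each.

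**Figure D5:**
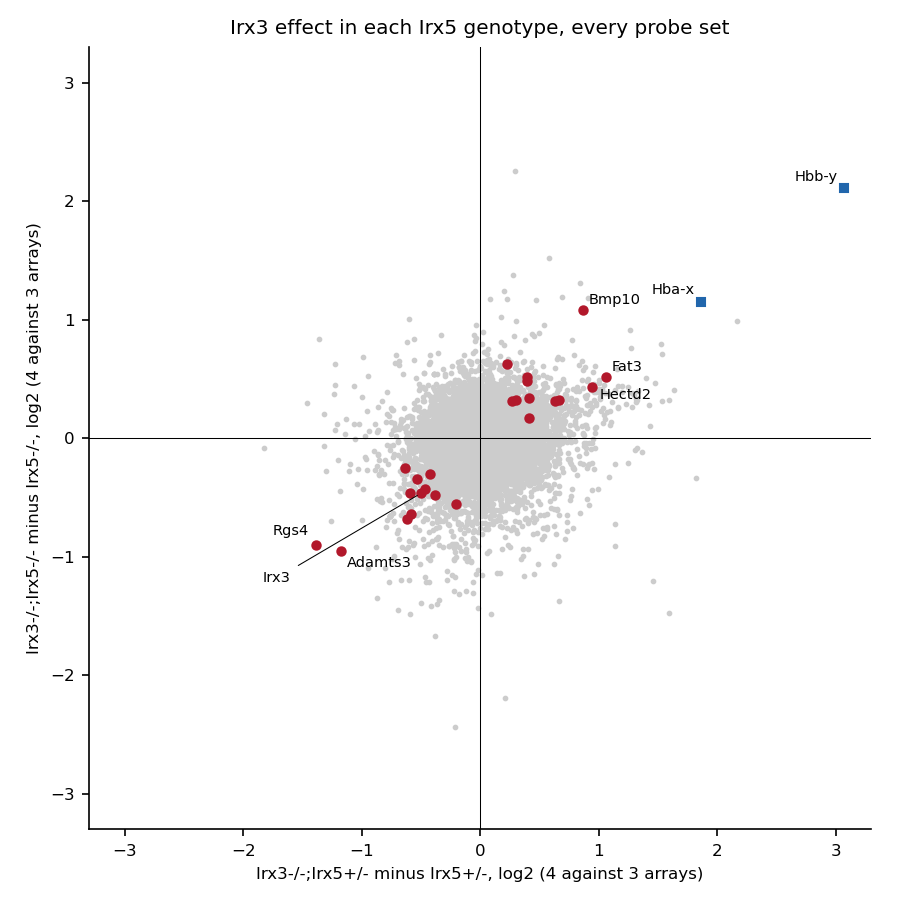
Irx3 difference with 1 Irx5 copy (x axis, log2, 4 against 3 arrays) and with none (y axis, log2, 4 against 3 other arrays) for every probe set (grey points), with the 24 genes nearest to passing in the pooled comparison in red and both embryonic globins as blue squares. The cloud of points shows little common direction, with a correlation of 0.135, and the 24 genes lie in the quadrants of equal sign because the pooled comparison chose them.

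Among the probe sets with the smallest p in the interaction, Chd7, a chromatin remodeller needed in neural crest and heart, stood highest at 1.40 ± 0.26. This Chd7 probe set was 8.20, 8.71 and 8.43 against 8.24, 7.48, 7.90 and 7.92 with 1 Irx5 copy, and 7.71, 7.88 and 8.14 against 8.87, 8.63, 8.98 and 8.50 with none. The Irx3 groups were separated with no Irx5 copy, and overlapped by 1 array with 1. Over 30 Chd7 probe sets the median Irx3 difference was -0.16 with 1 copy and 0.39 with none, where 3 lay below 0. Another Chd7 probe set, named in the next contrast, had an interaction of 0.04 ± 0.20. Its Irx3 difference was -0.29 with 1 copy and -0.25 with none. Scn3a, a sodium channel, had an interaction of 0.57 ± 0.13 and Bach1, a haem-sensing repressor, of 0.66 ± 0.16. On the other side were Gabra4, a GABA receptor subunit, at -1.38 ± 0.31 and Atraid at -0.81 ± 0.19. Gabra4, Atraid, Scn3a, Bach1 and the Chd7 probe set with the interaction of 1.40 had pooled differences within 0.14 of 0.

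Where the pooled loss of Irx3 differed from the loss of the second Irx5 copy was tested by the difference of both coefficients. In limma 0 probe sets passed (0.0%), with 1422 at an unadjusted p under 0.05 (6.53%, 3.35% higher and 3.18% lower) and a smallest adjusted p of 0.442. Among the named genes Zfp398 had the smallest p, with a difference of 0.70 ± 0.12 from its opposite coefficients given above. Apmap, an adipocyte membrane protein, was its mirror image, at -0.43 ± 0.11 for Irx3 and 0.42 ± 0.11 for Irx5. Kcnt2, a sodium-activated potassium channel, lay at 0.26 ± 0.13 for Irx3 and -0.69 ± 0.13 for Irx5, and Pcdhb20, a protocadherin, at 0.08 ± 0.12 and -0.74 ± 0.12. Rrm1, the large subunit of ribonucleotide reductase, lay at -0.03 ± 0.08 for Irx3 and 0.51 ± 0.08 for Irx5. The other Chd7 probe set lay at -0.27 ± 0.10 for Irx3 and 0.39 ± 0.10 for Irx5. For Bmp10 the difference was 1.01 ± 0.29 and for Il1rap -0.57 ± 0.17, and neither passed.

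The probe sets whose pattern over the 14 arrays was most like that of Irx3 are given as a description, since the genotypes set the pattern of Irx3. Hmcn1 supplied 4 of the 5 highest correlations, from 0.804 to 0.833, and Cbfa2t3, a transcriptional co-repressor, the fifth at 0.829. The lowest were Pdap1 at -0.855, Atp5l, an ATP synthase subunit, at -0.835, Trappc10 at -0.824, Zfp974 at -0.821 and Crip1 at -0.821. Cbfa2t3 lay at -0.29 for Irx3 and -0.23 for Irx5, and Atp5l at 0.33 and 0.34.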

How the data were processed

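The authors deposited log2 RMA signals of 28763 probe sets on Affymetrix Mouse Gene 1.0 ST arrays, per the file headers, after RMA with affy over all arrays together. Per the labels' protocols, 1 ng of total RNA per sample was amplified and labelled with biotin. Versions and genome build were not given in the sources used here. The values were used with no further scaling. Probe sets with exactly 1 gene symbol in the platform annotation, 21776 from 19931 genes, were tested. Another 1592 with several symbols and 5395 with none were left out. Of those tested, 21685 matched the reference gene table by gene ID.

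The model in limma 3.58.1 (R 4.3.3) had Irx3 and Irx5 genotype as additive terms over 14 arrays, with 11 residual and 3.21 prior degrees of freedom. The interaction came from a mean per group, and the difference of both coefficients from the additive model. Tests were 2-sided, with Benjamini-Hochberg adjustment over all 21776 and a call at 0.05. Errors of differences are SEs, and the procedure was tested on simulated data. Precision is limited by the number of arrays, and array signals have no depth.

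The comparison, the 36 gene lists and the rule for named genes were chosen with earlier results of these data known. Named were Irx1 to Irx6, the 12 genes per direction with the smallest p (leaving out predicted and clone names, receptors of smell, small RNAs and sex-linked genes), the 3 per direction in the other contrasts, and the 2 with the smallest p in each list. Further list members were named after their values were seen. Of 733 list entries, 693 had a probe set, and for genes with several (998) the one with the highest mean was used in lists. Alternatives were each array left out, replicate 4 moved, a replicate block, a mean per group, no Irx5 term, each Irx5 genotype alone, sarcomere or Xist terms, 1 probe set per gene, a filter on low values, centring, another variance model and array weights.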

Additional observations from a re-analysis of the deposited data

Results flagged for a closer look

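Among the 4-array groups of the named genes, 196 were searched for an array far from its group, and 8 were found, where chance gives about 1 in 20 groups. Of these 6 were in the Irx3-/-;Irx5+/- group. Hbb-y was 7.87 on Irx3-/-;Irx5+/- replicate 2, against 11.83 to 11.95 on the other 3. Polr3c was 8.93 on replicate 4 of that group, against 8.72 to 8.73. Trappc10 was 8.74 on its replicate 1, against 8.87 to 8.89, and Pcdhb20 was 7.69 on the same array, against 8.15 to 8.23. Notch2 was 10.34 on replicate 3 of that group, against 9.09 to 9.28, and Rpl10a was 12.94 on the same array, against 12.68 to 12.72. Among Irx3-/-;Irx5-/- arrays Dnajc13 was 11.16 on replicate 4, against 10.82 to 10.87, and Apmap was 8.75 on replicate 2, against 8.45 to 8.49.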

How the results depend on the processing

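Under 27 alternatives, 14 of them leaving out 1 array each, 2563 of 2578 values of named genes kept their direction and their side of the threshold. Most named genes had an adjusted p of 0.988 or more in limma in the main fit, so keeping their side was nearly fixed in advance. Fits with 1 array left out also share most arrays. The count therefore says little about how stable the differences were. The count of called probe sets for the pooled Irx3 loss ran from 0 to 2 when 1 array was left out. It was 1 (Irx3) without Irx3-/-;Irx5+/- replicate 4, and 2 without Irx5-/- replicate 2, namely Hspb8, a small heat shock protein, at 0.95 ± 0.12 (adjusted p = 0.0357 in limma) and Mecom, a transcription factor, at -0.71 ± 0.10 (adjusted p = 0.0494). It was 1 (Irx3) with replicate 4 moved to the genotype of its description and with median-centred arrays. The Irx3 difference was -0.52 to -0.47 over the arrays left out, -0.51 with that move and -0.49 with centring. Counts at an unadjusted p under 0.05 moved from 1072 (4.92%) to 1985 (9.12%) without Irx5-/- replicate 2 and to 1614 (7.41%) with array weights. The Irx3 minus Irx5 count moved from 1422 (6.53%) to 918 (4.22%) with replicate 4 moved. Above the median level, where 10888 probe sets were tested, the shares were 5.88% for Irx3 (4.92% over all), 4.09% for the interaction (4.09%) and 6.81% for Irx3 minus Irx5 (6.53%). With a replicate block Irx3 was at -0.50 (adjusted p = 0.999) and 0 probe sets were called in each of the 3 contrasts. Same-numbered arrays did not pair, with correlations of their deviations from -0.177 to 0.188 over 19 pairs, 4 of them above 0.1.

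Signs turned mostly for values near 0, and with 1 array left out Irx5 ran from -0.09 to 0.05 and Irx6 from -0.01 to 0.08. Irx1 was 0.07, Irx5 0.01, Mvk 0.03 and Rpl13 -0.02 in Irx5-/- arrays alone, and Irx6 was -0.02 in Irx5+/- arrays alone. Irx5 was 0.03 without Irx5-/- replicate 2 and with array weights, and 0.05 without Irx3-/-;Irx5-/- replicate 3. Irx6 was -0.01 without each of Irx3-/-;Irx5+/- replicate 2, Irx5-/- replicate 2 and Irx3-/-;Irx5-/- replicate 2. Irx4 was -0.06 with the sarcomere term, against 0.27 in the main fit. Mvk also was not near 0 in the main fit, at -0.18. Of 969 list medians 5 moved by more than the spread between arrays. Erythroid genes moved most, to 1.00 above the median level, a filter that the embryonic globins passed with their high Irx3-/- values included. The cause of each of these changes was not tested. Signal limits Bmp10, a dim probe set.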
